A study of Mus musculus with 4 samples.

Results

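The STEAP metalloreductases and partner genes of iron handling, 10 of 18193 measured genes, were followed in mouse liver tumors with p53 restored or still suppressed: the STEAP genes Steap1, Steap2, Steap3 and Steap4, and Tfrc, Slc11a2, Slc40a1, Cp, Hamp and Lcn2. All probe sets annotated to exactly 1 of these symbols were taken, which gave 35 of the 45101 probe sets on the array, 12 of them for the STEAP genes. The set was put together because Steap4 had one of the largest rises with p53 restored, so the values of the 10 genes in this comparison are given as a description and without p-values.

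The data came from 4 Affymetrix mouse whole-genome arrays, 1 tumor sample each, with 2 samples a group. In the p53 on group, recipient mice had received doxycycline chow for 8 days, which shuts off the hairpin and lets p53 return. In the p53 off group doxycycline had been given for 0 days, so that the hairpin against p53 was being made. All 4 tumors grew from liver progenitor cells (LPCs) transplanted into the liver, and all carried oncogenic RAS and the tet-off hairpin. The labels do not say whether replicates came from separate animals, or from how many progenitor lines. The p-values below therefore rest on the scatter of 2 samples a group, part or all of which may be technical. A fit without 1 array takes its scatter from the other group's pair alone, so a call can be lost while the difference stays alike. No tumor without the hairpin received doxycycline, so the return of p53, the drug and 8 days of time cannot be told apart.

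STEAP proteins are membrane oxidoreductases that pass electrons through a heme to ferric iron or cupric copper outside the cytoplasm. STEAP1 lacks the cytoplasmic NADPH-binding domain that the other members have. Transferrin-bound iron enters cells through the transferrin receptor (Tfrc), is reduced in the endosome, where STEAP3 does this in red cell precursors, and leaves the endosome through the divalent metal transporter (Slc11a2). Ferroportin (Slc40a1) is the exporter of iron from cells, ceruloplasmin (Cp) oxidises the exported iron, and hepcidin (Hamp), a hormone made by hepatocytes, brings about the breakdown of ferroportin. Lipocalin 2 (Lcn2) binds bacterial siderophores that carry iron. Steap4 is known to be induced by tumor necrosis factor in fat cells, and Steap3 has also been named Tsap6, a p53-activated gene.

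The values are RMA values, which are log2 intensities after background correction and quantile normalization. Array medians were 7.39 and 7.39 in p53 on and 7.34 and 7.29 in p53 off. The 3′ minus 5′ differences of control probe sets, which follow RNA quality, were higher on both p53 on arrays. For actin they were 0.48 and 0.49 in p53 on and 0.39 and 0.26 in p53 off. For Gapdh they were -0.06 and -0.02 against -0.11 and -0.14, and for the transferrin receptor 0.84 and 0.71 against 0.68 and 0.67. The part of RNA quality in small differences was not tested. Of 10 measured hepatocyte markers 0 rose and 2 fell in p53 on, and 2 were among the dimmest 40% of probe sets. Albumin (Alb) had values of 7.39 and 6.96 in p53 on and 7.07 and 7.06 in p53 off, and the liver transcription factor gene Hnf4a had 9.20 and 9.25 in p53 on and 9.88 and 9.72 in p53 off. Single arrays of the p53 on group stood apart in tissue markers. The liver enzyme gene Cyp2e1, of the hepatocyte list, had 9.71 and 7.39 in p53 on and 7.27 and 7.24 in p53 off. Adiponectin (Adipoq), a fat cell hormone, had 9.77 and 5.39 in p53 on and 5.79 and 5.44 in p53 off, and the fetal liver gene Afp had 8.47 and 5.33 in p53 on and 9.16 and 9.15 in p53 off. Across all probe sets, replicate arrays correlated at r = 0.994 in p53 on and 0.997 in p53 off, and arrays of different groups at 0.970 to 0.976; probe sets are not independent replicates.

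The STEAP genes did not move as a family. Steap4 was 12.1-fold higher in p53 on by its brightest probe set, whereas Steap1 was 3.83-fold and 7.19-fold lower by its 2 probe sets and Steap2 was 1.51-fold to 2.39-fold lower by its 5. Steap3 differed by 0.10 to 0.19 on the log2 scale in its 3 probe sets.

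Steap4 had values of 10.69 and 10.60 in p53 on, against 7.17 and 6.93 in p53 off in its brighter probe set. Both p53 on arrays lay more than 3 log2 units above both p53 off arrays. The difference was 3.60 ± 0.11 (SE, n = 2 against 2), the rise of rank 4 among 45037 probe sets, with Meox2 just above it at 3.63 and Agtr2 just below it at 3.44. The dimmer Steap4 probe set had 7.56 and 7.69 in p53 on and 7.41 and 7.20 in p53 off. Its groups did not overlap either, but its difference was only 0.32 ± 0.10. The sequences of the probes were not used here, so which transcript each probe set reads is not stated, and the large value for Steap4 rests on 1 of 2 probe sets. Of 6 measured markers of adipocytes, cells known to make Steap4, 1 rose and 0 fell, and the log2 of their summed level was 10.97 and 9.63 in p53 on and 9.58 and 9.50 in p53 off. The one that rose was the lipase gene Lipe, with 7.620 and 7.501 in p53 on and 7.100 and 7.197 in p53 off, whereas Adipoq was high on p53 on replicate 1 alone. The Steap4 difference was 3.55 without that array, and the part of adipocytes in it was not tested.

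**Figure D1:**
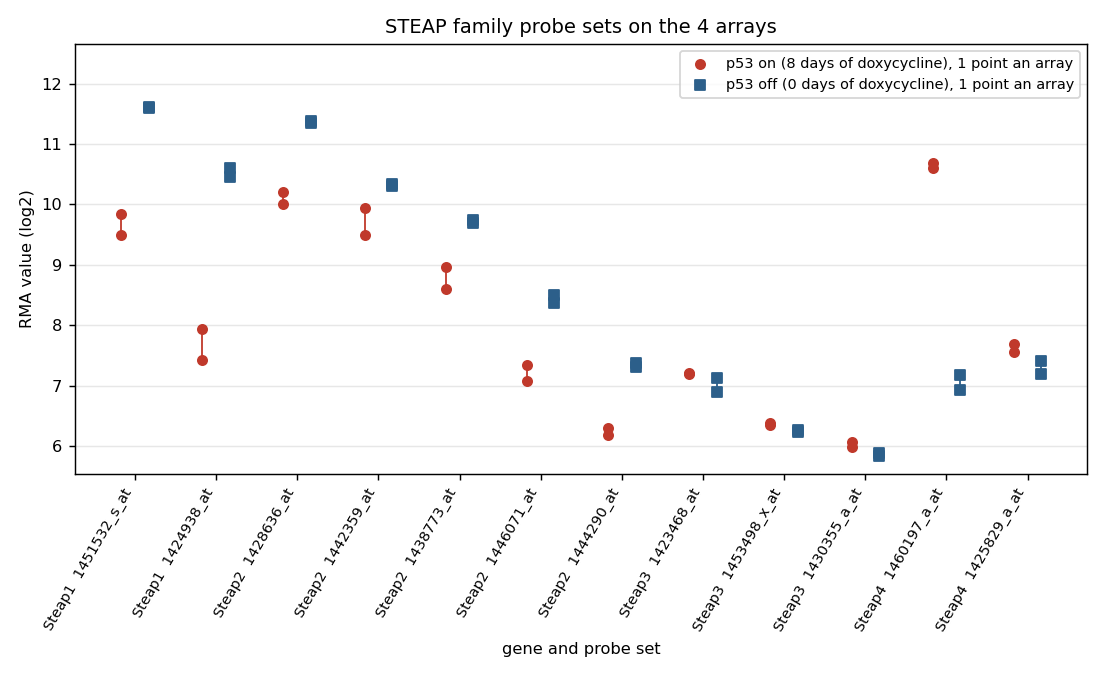
RMA values (log2, vertical axis) of the 12 STEAP probe sets (horizontal axis) on each array, with p53 on as red circles and p53 off as blue squares, joined by a line within a group. Steap4 is at 10.69 and 10.60 in p53 on against 7.17 and 6.93 in p53 off in its brighter probe set, and all Steap1 and Steap2 probe sets are lower in p53 on.

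Steap1, which was first described as a prostate tumor antigen, had values of 9.49 and 9.85 in p53 on and 11.60 and 11.60 in p53 off in its brighter probe set. In the dimmer one the values were 7.44 and 7.93 in p53 on, against 10.45 and 10.61 in p53 off. The groups were far apart in both, with differences of -1.94 ± 0.13 and -2.85 ± 0.17. The dimmer probe set ranked 25 among all falls. The brighter one carries the mark _s_at, which Affymetrix gives to probe sets whose probes can match more than 1 transcript.

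Steap2, a ferric and cupric reductase of the same family, was lower in p53 on in each of its 5 probe sets. In none of them did the groups overlap, where 27.7% of all probe sets were lower in p53 on without overlap. The brightest Steap2 probe set had 10.01 and 10.21 in p53 on and 11.35 and 11.38 in p53 off, a difference of -1.26 ± 0.09. The smallest difference, -0.60 ± 0.15, belonged to a probe set whose p53 on arrays themselves differed, at 9.94 and 9.50, against 10.33 and 10.30 in p53 off; it was -0.38 without p53 on replicate 2. The other 3 lay between -1.23 and -0.93.

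Steap3 showed the smallest differences in the family. Its brightest probe set had 7.20 and 7.21 in p53 on and 7.12 and 6.90 in p53 off, a difference of 0.19 ± 0.10. That difference was 0.31 without p53 off replicate 1, 0.08 without p53 off replicate 2 and 0.33 with spike-in scaling. The other 2 differed by 0.10 and 0.17, and both belong to the 40% of probe sets with the lowest mean values, where RMA values are near background and differences can be compressed. In all 3 the p53 on values lay above the p53 off values, as they did in 36.1% of all probe sets. None of the 3 Steap3 probe sets passed the threshold of the fit over all probe sets. With spike-in scaling 1 dim one passed it, with a difference of 0.31. Under that setting the median difference of all probe sets was 0.16, and 13897 of 45037 probe sets passed, against 10272 in the main fit.

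Most epithelial markers moved in the same direction as Steap1 and Steap2, which are made by epithelial cells. Of 6 measured epithelial markers 5 fell and 0 rose in p53 on, and the log2 of their summed level was 13.81 and 13.76 in p53 on and 15.14 and 15.33 in p53 off. Of 7 measured progenitor and bile duct markers 1 rose and 2 fell, and their summed level was 12.24 and 12.07 in p53 on and 12.70 and 12.97 in p53 off on the same scale. The one that rose, Epcam, is also an epithelial marker and had 10.18 and 10.19 in p53 on and 9.69 and 9.64 in p53 off. In bulk samples, fewer cells of a type and less RNA per cell cannot be told apart. The part of epithelial and progenitor cells in the Steap1 and Steap2 differences was not tested.

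Steap1, Steap2 and Steap4 lie near each other in gene order on mouse chromosome 5, with Steap4 on the opposite strand. RefSeq (GRCm38.p6) gave the sequence before the most upstream start of 8 of the 10 genes. The 250 bases before the start are shown for Steap4, Steap1 and Steap2, because they are near in gene order with differences of opposite sign. Capitals mark matches on either strand to 6 motifs chosen for known regulators of these genes: STAT (TTCNNNGAA), C/EBP (TTGCNNAA), AP-1 (TGANTCA), the hypoxia response element (ACGTG), and, by name, the NF-kB site and the p53 half-site. The windows are chr5:7960222-7960471 (plus strand), chr5:5749318-5749567 (minus strand) and chr5:5694569-5694818 (minus strand).
Steap4: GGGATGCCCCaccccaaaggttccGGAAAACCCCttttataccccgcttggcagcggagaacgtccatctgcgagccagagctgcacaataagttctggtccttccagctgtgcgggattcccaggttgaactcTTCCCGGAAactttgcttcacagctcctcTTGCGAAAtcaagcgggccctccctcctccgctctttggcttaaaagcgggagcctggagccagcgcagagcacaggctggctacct
Steap1: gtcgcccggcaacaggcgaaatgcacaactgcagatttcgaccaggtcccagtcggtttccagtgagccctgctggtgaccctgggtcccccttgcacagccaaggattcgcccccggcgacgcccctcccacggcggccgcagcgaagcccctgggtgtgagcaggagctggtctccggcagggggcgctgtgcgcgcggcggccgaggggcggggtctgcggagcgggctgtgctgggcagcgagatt
Steap2: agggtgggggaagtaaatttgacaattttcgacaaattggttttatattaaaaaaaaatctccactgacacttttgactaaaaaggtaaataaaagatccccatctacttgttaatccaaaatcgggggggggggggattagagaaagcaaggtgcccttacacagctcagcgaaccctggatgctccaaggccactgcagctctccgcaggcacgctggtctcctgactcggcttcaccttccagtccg

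The Steap4 window held 2 matches to the NF-kB site, 1 to STAT and 1 to C/EBP, and the Steap1 and Steap2 windows held none of the 6 motifs. From the 5′ end, the capitals in the Steap4 window are the NF-kB matches GGGATGCCCC and GGAAAACCCC, the STAT match TTCCCGGAA and the C/EBP match TTGCGAAA, which do not overlap. Among 27025 such windows, 7.03% held an NF-kB match, 7.14% a STAT match, 9.55% a C/EBP match, 6.85% an AP-1 match, 16.5% a hypoxia response element and 7.16% a p53 half-site. Of the 8 members, Hamp also had a STAT and an AP-1 match, Cp an AP-1 match and Lcn2 a C/EBP match. These are letter matches in short windows and not sites of binding.

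Genes next to Steap1, Steap2 and Steap4 in gene order were examined after the STEAP values were seen. Cfap69, a gene of sperm tails and cilia that lies next to Steap2, had 7.72 and 7.59 in p53 on, against 9.90 and 10.05 in p53 off. It was lower on both p53 on arrays, and it fell by 2.32 ± 0.09 on the log2 scale (limma adjusted p = 0.000417), with -1.54 as the mean of its 3 probe sets. Thus 3 genes in a row, Cfap69, Steap2 and Steap1, were lower in p53 on. Gtpbp10, before Cfap69, fell by 0.54 ± 0.10 (limma adjusted p = 0.0144; 0.0883 without p53 off replicate 2, and 0.00438 to 0.0883 over the alternatives). Between Steap1 and Steap4, Tex47 was measured and differed by -0.03 ± 0.12, while Gm46900 and Zfp804b were not measured. On the far side of Steap4, the calcium-binding protein gene Sri and Adam22 did not pass the test (-0.24 ± 0.08 and -0.04 ± 0.08), and Dbf4, which activates a kinase of DNA replication, fell by 1.48 ± 0.09 (limma adjusted p = 0.000841), with -0.77 as the mean of its 2. Of the 18193 genes on the array, 14.2% fell by the same call.

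**Figure D2:**
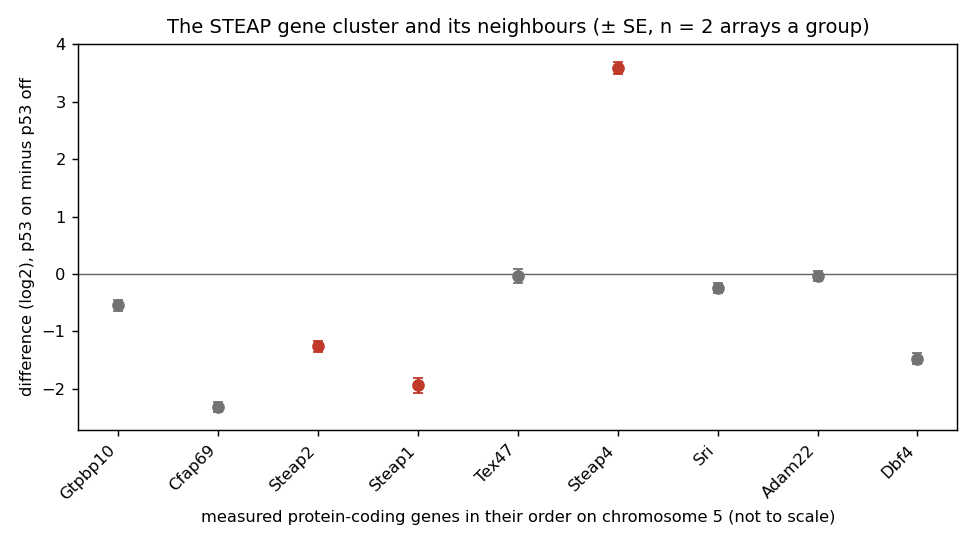
Difference in RMA value (log2, p53 on minus p53 off, vertical axis, ± SE, n = 2 arrays a group) of the brightest probe set of each gene. Measured protein-coding genes around Steap2, Steap1 and Steap4 are in chromosome order on the horizontal axis, not to scale. STEAP genes are red and other genes grey; Cfap69, Steap2 and Steap1 lie below 0 side by side, and Steap4 is at 3.60.

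The transferrin receptor gene Tfrc was lower in p53 on. Its brightest probe set had 9.03 and 8.97 in p53 on and 10.80 and 10.77 in p53 off, so that replicates agreed closely and the groups were well apart. The difference was -1.79 ± 0.07, or 3.45-fold lower. The other 2 Tfrc probe sets differed by only -0.26 ± 0.07 and -0.09 ± 0.07, and the sign of the smaller one turned with scaling to spike-in controls (0.05). Affymetrix also places 3 control probe sets of the transferrin receptor on the array to follow RNA quality. They lay outside the fit and differed by -0.08, -0.13 and -0.18, each with all p53 on values below the p53 off values. Their values were all under 6, near the low end of the scale. The size for Tfrc therefore rests on 1 of 6 probe sets. All 6 had the lower values in p53 on as deposited, without overlap, as did 27.7% of all probe sets tested. No value with spike-in scaling is given for the 3 control probe sets.

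Slc11a2, the transporter that moves ferrous iron out of the endosome, showed no common direction. Its brightest probe set had 8.39 and 8.44 in p53 on and 8.60 and 8.73 in p53 off, a difference of -0.25 ± 0.08. A second one had 7.89 and 7.95 in p53 on and 7.74 and 7.60 in p53 off, a difference of 0.25 ± 0.08 the other way. In the remaining 2 the groups overlapped, and none of the 4 passed the threshold of the fit.

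Ferroportin and ceruloplasmin, which act together in iron export, were both higher in p53 on. Slc40a1 had 10.43 and 10.45 in p53 on, against 9.57 and 9.22 in p53 off, in its brighter probe set. The p53 off arrays differed more between themselves than the p53 on arrays did, and the groups did not overlap. The difference was 1.04 ± 0.13 there and 0.79 ± 0.09 in the dimmer probe set, or 2.06-fold and 1.72-fold.

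Cp was higher in p53 on in all 8 of its probe sets, with differences from 0.18 to 1.12. The probe set with the highest mean had 10.08 and 9.84 in p53 on, against 8.97 and 9.02 in p53 off, a difference of 0.96 ± 0.10. The largest difference, 1.12 ± 0.08, came from values of 8.42 and 8.31 in p53 on, against 7.27 and 7.21 in p53 off. In no Cp probe set did the groups overlap, where 36.1% of all probe sets were higher in p53 on without overlap. The 4 dim Cp probe sets had differences of 0.71, 0.37, 0.70 and 0.18. The p53 on arrays were not equally high in every probe set: 1 had 8.71 and 8.18, against 7.31 and 7.46 in p53 off, and its difference was 1.33 without p53 on replicate 2 and 0.79 without p53 on replicate 1.

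Macrophages are a main site of Slc40a1 in the liver, and part of their markers were higher in p53 on. Of 12 measured macrophage markers 6 rose and 0 fell, and the log2 of their summed level was 15.13 and 14.90 in p53 on and 14.13 and 14.29 in p53 off. The Kupffer cell markers Clec4f (0.06), Marco (-0.08) and Timd4 (-0.10) did not pass the test. Nor did Vsig4 (0.35), Mrc1 (0.17) and Cd5l (0.16), the first 2 with overlapping groups. Of 12 fibroblast and stellate cell markers 10 rose and 1 fell, and of 8 endothelial markers 6 rose and 1 fell. The ones that fell were Lrat of the first list (-0.85) and Lyve1 of the second (-0.69). Reln of the first list (0.38) and the dim Stab2 of the second (0.31) did not pass the test. Summed levels on the log2 scale were 16.59 and 16.63 in p53 on against 15.89 and 15.68 in p53 off for fibroblast and stellate cell genes, and 12.85 and 13.07 in p53 on against 12.45 and 12.37 in p53 off for endothelial genes. The part of these cells in the higher Slc40a1, Cp and Steap4 values was not tested.

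**Figure D3:**
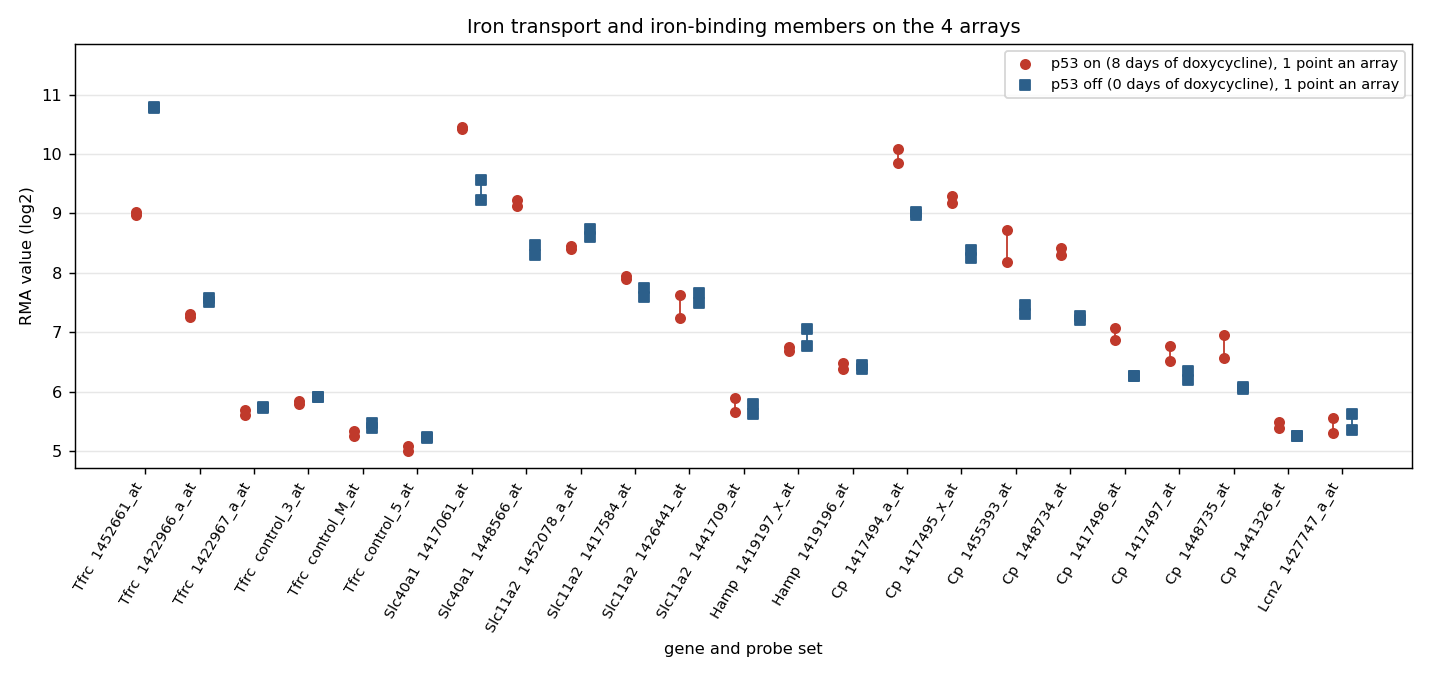
RMA values (log2, vertical axis) of the 23 probe sets of Tfrc, Slc40a1, Slc11a2, Hamp, Cp and Lcn2 (horizontal axis) on each array, with p53 on as red circles and p53 off as blue squares; "control" marks the 3 Affymetrix control probe sets of Tfrc. The brightest Tfrc probe set is lower and all Slc40a1 and Cp probe sets are higher in p53 on.

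Hamp and Lcn2 differed by at most 0.19 on the log2 scale, and none of their probe sets passed the threshold of the fit. Hamp had 6.68 and 6.75 in p53 on and 6.76 and 7.05 in p53 off in the brighter of its 2 probe sets, and 6.38 and 6.47 in p53 on and 6.37 and 6.45 in p53 off in the other. Both are dim, so a difference could be compressed. The differences were -0.19 ± 0.11 and 0.02 ± 0.08, the second -0.06 after centring arrays on their medians. Lcn2 had 5.56 and 5.30 in p53 on and 5.62 and 5.36 in p53 off in its single, very dim probe set (-0.06 ± 0.13, and 0.08 with spike-in scaling). Of 9 measured markers of neutrophils, which store lipocalin 2, 1 rose and 0 fell. Of these, S100a8 differed widely between replicates, at 9.08 and 7.77 in p53 on and 9.44 and 8.20 in p53 off. Mmp9 alone was at 12.92 and 13.08 in p53 on and 13.05 and 12.92 in p53 off, and makes up most of the sum. The summed levels of the 9 were 13.25 and 13.32 in p53 on and 13.37 and 13.16 in p53 off on the log2 scale. The summed hepatocyte markers were at 11.66 and 11.21 in p53 on and at 11.65 and 11.61 in p53 off on the same scale. Of 7 erythroid markers 0 were called by limma and 0 had an unadjusted p under 0.05 (10.10 and 10.19 in p53 on, 10.03 and 10.04 in p53 off).

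Of the 32 member probe sets in the fit, 9 were called higher and 8 lower in p53 on at a limma adjusted p of 0.05 over all probe sets, and 15 were not called. Over all 45037 probe sets, 22.8% were called in either direction, 11.3% higher and 11.5% lower. The groups did not overlap in 16 higher and 12 lower member probe sets, where 36.1% and 27.7% of all probe sets had that pattern (63.8% in either direction). Nothing is read from these counts, since the genes were chosen from this comparison. With spike-in scaling the split was 14 higher and 8 lower. The median difference was 0.08 over the members and 0.03 over all probe sets, and the median absolute difference was 0.65 and 0.15.

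**Figure D4:**
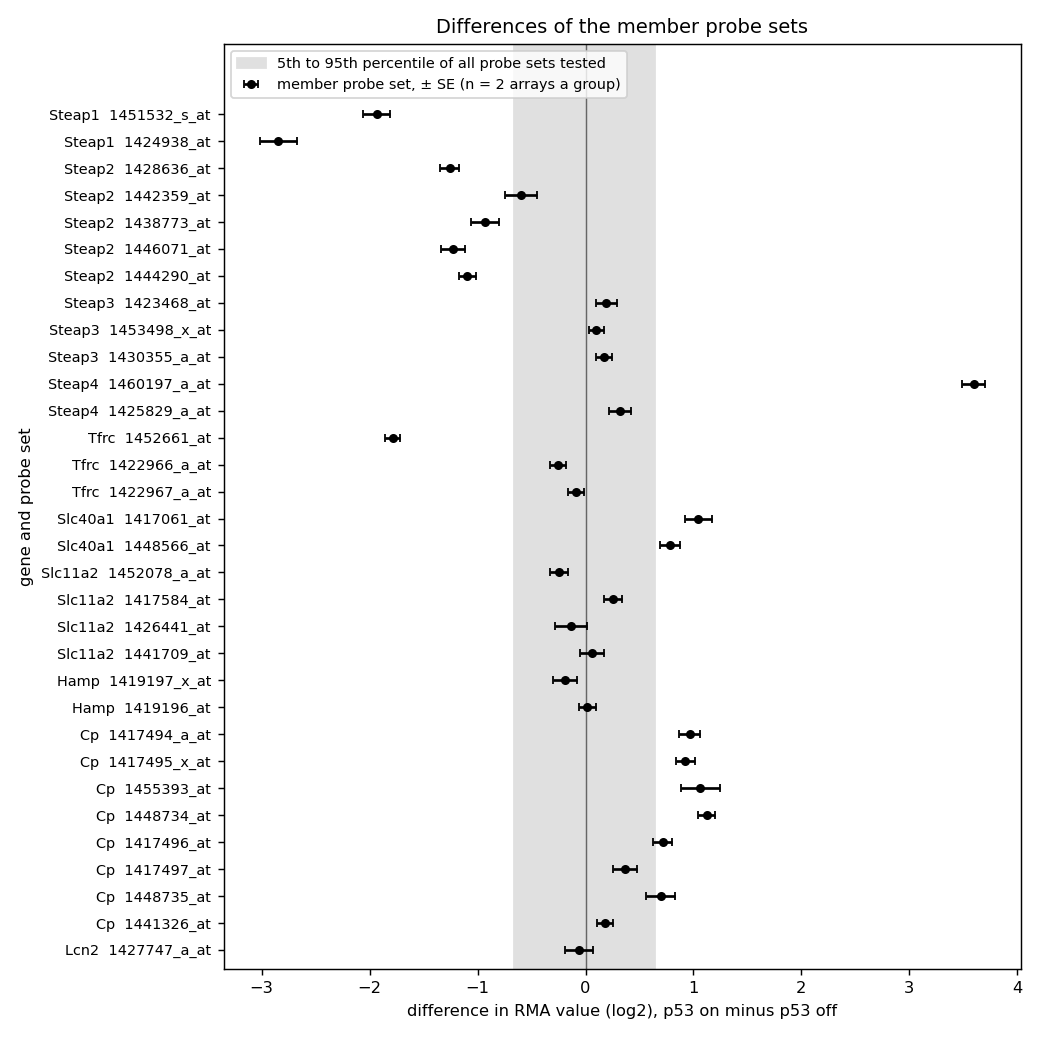
Difference in RMA value (log2, p53 on minus p53 off, horizontal axis, ± SE, n = 2 arrays a group) of the 32 member probe sets in the fit (vertical axis). The grey band spans the 5th to the 95th percentile of all probe sets tested, -0.66 to 0.65. To its right lie the brighter Steap4 probe set at 3.60, both Slc40a1 probe sets and the Cp probe sets from 0.70 to 1.12. The dimmer Steap4 probe set at 0.32 lies inside it, and Steap1, Steap2 and Tfrc lie to its left with their leading probe sets.

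The genes with the pattern nearest to Steap4 over the 4 arrays were found by the Euclidean distance between log2 values centred on each probe set's mean. They were Clec4a3, a lectin receptor of myeloid cells (0.314), the homeobox gene Meox2 (0.355), the microfibril gene Fbn2 with both its probe sets (0.355 and 0.429) and Agmo, which cleaves ether lipids (0.495). With 4 arrays in 2 groups, such a distance mostly measures the size of the group difference.

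Other genes of iron, heme and copper handling were counted from lists of genes outside the 10, each gene by its brightest probe set. Of 81 measured genes 14 (17.3%) rose and 10 (12.3%) fell in p53 on, against 13.5% and 14.2% of all genes, so that the shares of these lists were near those of the array. Their median difference was 0.07, against 0.02 for all genes. After centring arrays on their medians the split was 13 and 15, and with spike-in scaling it was 27 and 9.

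**Figure D5:**
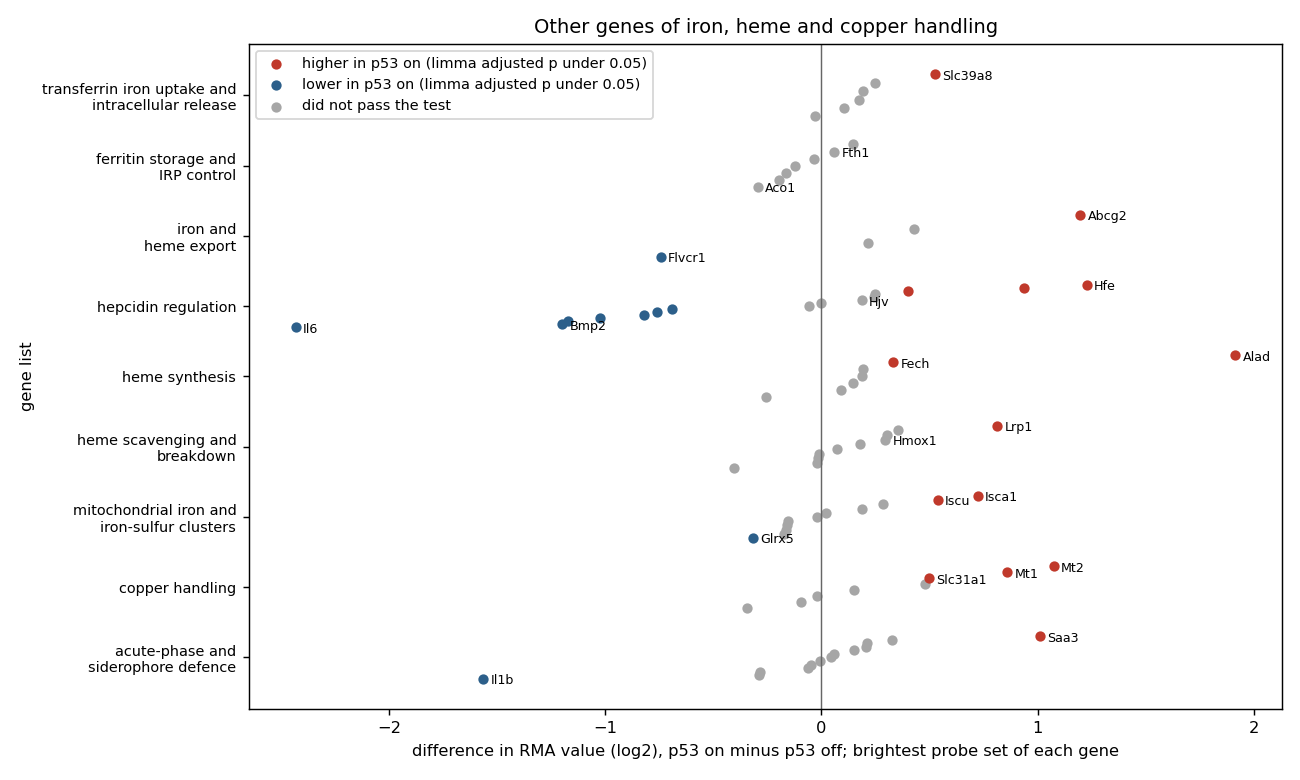
Difference in RMA value (log2, p53 on minus p53 off, horizontal axis) of each measured gene in 9 lists (vertical axis), with genes higher in p53 on in red, lower in blue and those that did not pass the limma test in grey. Genes named by rule are labelled; the lists of hepcidin regulation and of heme synthesis hold Il6 at -2.43 and Alad at 1.91.

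Iron storage and its sensing showed no called gene. Of 7 measured genes 0 were called by limma, and only Aco1 had an unadjusted p under 0.05. Fth1, the ferritin heavy chain, had 13.99 and 14.01 in p53 on, against 13.90 and 13.98 in p53 off (0.06 ± 0.07, and -0.02 after centring arrays on their medians). Aco1, iron regulatory protein 1, came nearest to a call at -0.30 ± 0.09 (limma adjusted p = 0.0713; 0.0386 after centring arrays on their medians, the lower end of a range of 0.0386 to 0.327 over the alternatives). That Aco1 probe set carries the cross-hybridization mark _x_at, and the 3 Aco1 probe sets ran from -0.30 to 0.17. Without _s_at and _x_at probe sets Aco1 differed by -0.22 (limma adjusted p = 0.219). Of 6 uptake genes outside the members only the zinc and iron importer Slc39a8 rose, by 0.53 ± 0.08 (limma adjusted p = 0.00721).

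Of 4 export genes 1 rose and 1 fell. Abcg2, an efflux pump that also carries porphyrins, had 10.67 and 10.92 in p53 on, against 9.56 and 9.65 in p53 off, and rose by 1.20 ± 0.10 (limma adjusted p = 0.00174). The heme exporter Flvcr1 fell by 0.74 ± 0.08 (limma adjusted p = 0.00284).

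Genes that regulate hepcidin moved both ways, with 3 of 15 measured genes higher and 7 lower. Il6, the cytokine that induces hepcidin in inflammation, had 6.691 and 6.997 in p53 on, against 9.681 and 8.865 in p53 off. Both p53 on arrays were well below both p53 off arrays, and Il6 fell by 2.43 ± 0.27 (limma adjusted p = 0.00332). Its p53 on mean of 6.84 is near 6.859, the mean value under which probe sets were counted as dim, so the size of the fall is uncertain. Bmp2, a ligand that drives hepcidin transcription, fell by 1.20 ± 0.14 (limma adjusted p = 0.00379). Named after its values were seen, the iron-responsive ligand Bmp6 had 7.41 and 7.62 in p53 on, against 8.57 and 8.80 in p53 off, and fell by 1.17 ± 0.12. Id1 and Smad7, targets of the same pathway that were also named afterwards, fell by 0.76 ± 0.08 and 0.82 ± 0.09, while Smad6, a further target, was dim and differed by -0.06 ± 0.07. Also named afterwards were the receptor gene Il6ra and the transcription factor gene Stat3, through which interleukin 6 acts. Il6ra rose by 0.94 ± 0.09 (limma adjusted p = 0.00218), or by 0.53 as the mean of its probe sets. Stat3 rose by 0.40 ± 0.07 (limma adjusted p = 0.0165), whereas Socs3 of the same list differed by -0.004 ± 0.08, with overlapping groups. The Stat3 call was not kept without p53 off replicate 1 or 2, where its difference was 0.42 and 0.38. Hfe, whose loss causes hereditary iron overload, rose by 1.23 ± 0.09 (limma adjusted p = 0.00112), but by 0.72 as the mean of its 2 probe sets, and the coreceptor gene Hjv differed by 0.19 ± 0.13 in a probe set marked _s_at and by -0.05 in the other.

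In heme synthesis 2 of 7 measured genes rose. Alad, which joins aminolevulinate molecules in the second step, had 11.12 and 11.52 in p53 on, against 9.40 and 9.42 in p53 off. It was 3.77-fold higher, with no overlap between groups (1.91 ± 0.14, limma adjusted p = 0.00109), and its other probe set was also higher, at 1.13. Fech, which inserts the iron, rose by 0.33 ± 0.08 (limma adjusted p = 0.0425), or by 0.84 in a probe set without a mark of cross-hybridization, but passed no longer without p53 off replicate 1 (0.163) or 2 (0.170), without p53 on replicate 2 (0.127), or under 3 other settings, the replicate block, centring and trend with robust eBayes (range 0.00664 to 0.170). Of 10 genes of heme scavenging and breakdown Lrp1, the receptor for hemopexin-bound heme, rose by 0.81 ± 0.09 (limma adjusted p = 0.00378). Heme oxygenase 1 (Hmox1) had 10.03 and 10.28 in p53 on and 10.12 and 9.60 in p53 off, with overlapping groups (0.29 ± 0.19).

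Of 11 measured genes of mitochondrial iron and iron-sulfur clusters 2 rose and 1 fell. The cluster assembly genes Isca1 and Iscu rose by 0.72 ± 0.08 and 0.54 ± 0.09 (limma adjusted p = 0.00341 and 0.00995), and the glutaredoxin gene Glrx5 fell by 0.32 ± 0.08 (limma adjusted p = 0.0348). The Iscu call was not kept without p53 off replicate 1 or 2, where its difference was 0.56 and 0.51. The Glrx5 call was not kept without p53 off replicate 1 or 2 (differences of -0.33 and -0.31) or p53 on replicate 1 (-0.27). Nor was it kept with the replicate block (limma adjusted p = 0.0663), quantile normalization (0.072) or spike-in scaling (-0.18, 0.167).

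Of 8 copper genes 3 rose and 0 fell. STEAP proteins reduce copper for uptake by the importer encoded by Slc31a1, which rose by 0.50 ± 0.09 in its brighter probe set and was 1.23 higher in the other. The metallothionein genes Mt1 and Mt2, which bind zinc and copper, rose by 0.86 ± 0.19 and 1.07 ± 0.25. Mt2 had 13.27 and 13.27 in p53 on, against 12.59 and 11.80 in p53 off, so that its size depends on which p53 off array is used: 0.68 without replicate 2 and 1.47 without replicate 1. Limma adjusted p values were 0.016 for Slc31a1, 0.0291 for Mt1 and 0.0304 for Mt2. The Slc31a1 call was not kept without p53 off replicate 1 or 2, where its difference was 0.52 and 0.48. The Mt2 call was not kept without p53 on replicate 1, where its difference was 1.07. The Mt1 call was not kept without p53 on replicate 2, where its difference was 0.81, and the difference was 0.56 without p53 off replicate 2. The other Mt1 probe set, without a mark of cross-hybridization, was at 0.27 (limma adjusted p = 0.0778).

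Among 13 acute-phase and siderophore genes 1 rose and 1 fell, and 7 were dim. Saa3, the serum amyloid A of macrophages and stroma, had 9.80 and 9.55 in p53 on, against 8.97 and 8.36 in p53 off (1.01 ± 0.21, limma adjusted p = 0.0228; 0.0576 without p53 off replicate 2, and 0.00644 to 0.0576 over the alternatives). The cytokine gene Il1b had 10.09 and 10.23 in p53 on, against 11.80 and 11.65 in p53 off, and fell by 1.56 ± 0.09 (limma adjusted p = 0.000705). Tnf, a known inducer of Steap4, was named after its values were seen and differed by 0.33 ± 0.09 (limma adjusted p = 0.0521). It passed under 6 of 14 alternatives, among them leaving out dim probe sets (0.0436), 1 probe set a gene (0.0467) and leaving out p53 on replicate 1 (0.0323), with a range of 0.0153 to 0.195.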

How the data were processed

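Per the labels' protocols, total RNA of 4 tumor samples was extracted with Trizol, amplified by in vitro transcription and biotin-labelled. The deposited table holds 1 log2 value per probe set and array, made by the authors; the submitters' processing notes list RMA and limma 3.14.4 without their roles. No build or annotation is stated. No detection call comes with such values, and the number of arrays limits the precision.

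Genes were named from a platform annotation: 34945 probe sets had exactly 1 symbol, 932 several and 9160 none (unnamed here). All 45037 probe sets other than 64 controls entered 1 linear model per probe set (limma 3.58.1, lmFit then eBayes, in R 4.3.3) as p53 on minus p53 off, with 2 residual degrees of freedom and Benjamini-Hochberg adjustment. An adjusted p under 0.05 was called. An exact permutation test of 2 against 2 arrays cannot go below 0.333, so none was used. SE values are the moderated ones of the fit. Genes outside the members are given by their brightest probe set, the one of highest mean. The fit was checked on simulated data.

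The members, the gene lists and the tests were chosen with earlier results of these data known. In each list up to 3 called genes with the largest change were named, or the one with the smallest p, and Fth1, Hmox1, Il6 and Hjv always. Bmp6, Id1, Smad6, Smad7, Il6ra, Stat3, Socs3, Tnf and the chromosome neighbours were named after their values were seen. Ftl1 had no probe set of exactly 1 gene. Lists were described by counts and medians. Figures were drawn with matplotlib 3.10.9 in Python 3.11.15.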

Additional observations from a re-analysis of the deposited data

How the results depend on the processing

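No difference of a called member probe set or called named gene changed sign under any alternative: the replicate block, quantile normalization, centring on the median, spike-in scaling, leaving out dim or _s_at and _x_at probe sets, 1 probe set a gene, the mean of a gene's probe sets, trend and robust eBayes, array weights and leaving out each array. Spike-in scaling moved the median difference of all probe sets from 0.03 to 0.16, against which differences under that setting are read. Of the 10272 called probe sets 49.4% were higher in p53 on, against 37.7% with centring and 73.3% with spike-in scaling. The count was 4763 at an adjusted p of 0.01, 5223 with 1 probe set a gene and 5011 with the mean of a gene's probe sets, where fewer features were tested. Leaving out 1 array gave 4048 to 9560, the lowest without p53 off replicate 2 and 6250 without p53 off replicate 1. The called member probe sets numbered 13 to 18 of 32 without 1 array (17 with all), and 6 of the 10 genes were called with 1 probe set a gene and 6 with the mean. The 24 called iron pathway genes numbered 17 to 27 without 1 array. Without p53 on replicate 1, the array with high Adipoq, they numbered 27 and the member probe sets 18. With the mean of a gene's probe sets the difference was 1.96 for Steap4 and -0.71 for Tfrc.

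The replicate numbers are shared by both groups, but nothing in the labels pairs the samples, and deviations of same-numbered arrays correlated at -0.0825. With the replicate block 8216 probe sets, 17 member probe sets and 22 iron pathway genes were called; among named genes the calls of Fech (adjusted p = 0.0653) and Glrx5 (0.0663) were not kept.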
